A study of Homo sapiens with 6 samples.

Results

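Genes of angiogenic growth factors were followed on 6 single-colour oligonucleotide arrays of MM1S, an established human line of multiple myeloma, a tumour of antibody-secreting plasma cells. The 10 genes are VEGFA, VEGFB, VEGFC, PGF, ADM, HGF, FGF2, ANGPT1, ANGPT2 and TYMP, chosen by name, and each was followed through every probe set annotated to its symbol alone. They are 10 of the 19775 genes that the array reads through such probe sets. The rule gave 25 of its 54613 probe sets, at least 1 for each gene, and no probe set shared a member's symbol with another gene. The arrays fall into 3 of cells in normoxia and 3 of cells in hypoxia, all of the same line without any other agent named in the labels. Hypoxia lasted 24 h, the oxygen level is not named in the labels, and they do not say whether arrays of a group came from separate cultures. The p-values therefore measure how these arrays vary, and that variation may be technical. The comparison asks which transcripts differ in level between normoxic and hypoxic cells.

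Angiogenic growth factors are secreted proteins that make endothelial cells divide, migrate and form vessels. Low oxygen stabilises the hypoxia-inducible factors (HIF), which bind a short DNA element in genes such as VEGFA and raise their transcription. In myeloma, plasma cells lodge in the bone marrow and secrete several of these factors, and vessel density in the marrow rises as the disease progresses. VEGFA, VEGFB, VEGFC and PGF form 1 protein family, ANGPT1 and ANGPT2 are the angiopoietins, ADM is a vasoactive peptide, HGF and FGF2 are broad growth factors, and TYMP is an enzyme of nucleoside breakdown that also goes by the name platelet-derived endothelial cell growth factor.

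Intensities are the deposited linear values, and a change is the log2(intensity + 16) value in hypoxia less that in normoxia, a scale that shrinks the changes of dim probe sets. The test was limma with Benjamini-Hochberg adjustment over all 54613 probe sets, and a probe set passed at an adjusted p under 0.05. Array medians lay between 54.95 and 60.13, and a probe set under the median of every array is called dim here, and its signal may be background. Levels of different probe sets are not compared, because probes differ in brightness for the same amount of RNA. Log2 values of arrays correlated at 0.988 to 0.993 within a group and at 0.962 to 0.968 between groups, across probe sets, which are not independent replicates. All 12 listed plasma cell markers had a brightest probe set that was not dim. On these, 5 fell and 0 rose in limma, while over all 19775 genes, read the same way, 19.1% fell and 15.6% rose. Of the 7 not past the threshold, XBP1 and POU2AF1 had an unadjusted p under 0.05, both upward (changes 0.22 and 0.19). Of all probe sets, 1 of 3 of IRF4, 1 of 3 of PRDM1 and 1 of 2 of POU2AF1 rose. SDC1, MZB1 and FKBP11 fell on all of theirs, SLAMF7 on 2 of 3 and CD38 on its single probe set. Of the 5 that fell on the brightest probe set, MZB1 lost its call in 9 of 14 alternatives, among them leaving out any 1 array (limma adjusted p = 0.0527 to 0.11). Their summed intensity was 76625 to 77938 in normoxia and 75130 to 76628 in hypoxia. Summed markers of endothelium were at 752 to 797 and 823 to 883 over 12 genes, those of stroma at 628 to 757 and 591 to 916 over 12, and those of macrophages at 253 to 298 and 321 to 337 over 10. The endothelial and macrophage sums were higher on every hypoxia array. So were the array medians, at 57.59, 59.79 and 60.13 against 55.78, 54.95 and 56.77 in normoxia. The part of the marker sums in the changes below was not tested. The medians were addressed by 1 alternative that centred each array on its median, in which 7 member probe sets rose and 5 fell. Dim on all arrays were 3 of the 12 endothelial markers, 4 of the 12 stromal and 7 of the 10 macrophage ones. FAP of stroma was at 1 on all hypoxia arrays, a value that may be a floor of the deposited data. Per array, 2.44% to 2.58% of all probe sets were at exactly 1, and only 2 to 7 probe sets were below it. CDH5, the cadherin that defines endothelium, had a mean of 6.53 (SD 0.409, n = 3) in normoxia and 9.96 (SD 10.1, n = 3) in hypoxia. Other endothelial markers were not dim. ESAM had means of 197 and 186, PECAM1 of 123 and 124 and ROBO4 of 90.5 and 131 in normoxia and hypoxia, with no array under its median.

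Because members changed in opposite directions, the reference promoters of 2 that rose and 2 that fell are shown. The sequences are the 250 bases before the start of each gene in RefSeq, build GRCh38.p14, read 5′ to 3′ on the gene's strand. Capitals mark ACGTG or GCGTG, the core letters of the HIF element, searched on both strands (CACGT and CACGC on the other), where ACGTG and CACGT can overlap. The ADM window is chr11:10304823-10305072 on the plus strand, that of VEGFB chr11:64234334-64234583 on the plus strand, that of FGF2 chr4:122826581-122826830 on the plus strand and that of VEGFC chr4:176792923-176793172 on the minus strand.
ADM: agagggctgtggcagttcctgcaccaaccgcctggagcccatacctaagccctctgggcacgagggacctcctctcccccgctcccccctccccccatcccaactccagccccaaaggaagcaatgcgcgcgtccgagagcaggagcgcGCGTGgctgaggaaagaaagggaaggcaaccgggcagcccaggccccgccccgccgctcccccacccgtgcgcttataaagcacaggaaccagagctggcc
VEGFB: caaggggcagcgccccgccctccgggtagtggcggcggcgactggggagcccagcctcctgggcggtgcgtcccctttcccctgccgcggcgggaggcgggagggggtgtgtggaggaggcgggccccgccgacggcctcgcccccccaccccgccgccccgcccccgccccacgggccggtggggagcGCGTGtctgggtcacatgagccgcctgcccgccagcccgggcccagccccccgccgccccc
FGF2: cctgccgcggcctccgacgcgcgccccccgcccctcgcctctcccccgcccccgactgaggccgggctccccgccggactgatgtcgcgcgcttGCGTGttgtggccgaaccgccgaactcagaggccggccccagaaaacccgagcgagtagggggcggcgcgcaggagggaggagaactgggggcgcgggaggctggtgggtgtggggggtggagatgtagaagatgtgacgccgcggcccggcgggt
VEGFC: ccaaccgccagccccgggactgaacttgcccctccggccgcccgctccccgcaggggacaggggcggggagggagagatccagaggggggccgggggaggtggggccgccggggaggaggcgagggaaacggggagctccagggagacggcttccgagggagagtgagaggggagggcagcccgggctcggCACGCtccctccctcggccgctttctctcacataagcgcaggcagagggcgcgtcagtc
Each of these windows holds the core 1 time. Its first base lies 101 bases before the start in ADM, 61 in VEGFB, 156 in FGF2 and 59 in VEGFC. The letters were found in ADM and VEGFB, which rose, and in FGF2 and VEGFC, which fell. All of these matches were GCGTG or CACGC, and 18.5% of all windows held ACGTG or CACGT. Bases farther from the start were not searched, and whether HIF acted on these genes was not tested. The table gave 9 windows for 7 of the 10 members, 8 of them with the core, and VEGFA, ANGPT1 and ANGPT2 were not analysed here. HGF held the core 1 time and both overlapping windows of TYMP 3 times, while PGF held it in 1 of 2 overlapping windows. Of all 35116 windows of the same length, 43.2% held the core. The windows shown are rich in G and C, at 68% in ADM, 82.8% in VEGFB, 75.2% in FGF2 and 74% in VEGFC, against a median of 58% over all windows. A match is a description of letters and not a binding site.

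Over the 25 member probe sets, 8 rose and 4 fell, and the other 13 were not past the threshold. Of all probe sets, 15.5% rose and 15.2% fell, or 30.7% in either direction, against 48% of the member probe sets. The groups did not overlap for 13 members, or 52%, against 42.5% of all probe sets. The median change was 0.016 over the members and 0.017 over all probe sets. The count of members that rose was 5 without the normoxia array numbered 1 and 5 without that numbered 2. Brightness split the members: 14 were dim, of which 1 rose and 2 fell, while of the 11 others 7 rose and 2 fell. Among all dim probe sets 3.84% rose and 2.73% fell, or 6.57% together, beside 21.4% of the dim members. Among all others 24.5% rose and 24.7% fell, or 49.2% together, beside 81.8% of the members. The 2 that fell among these 11 were the FGF2 probe sets, which were above the array median in normoxia only. They were thus kept out of the dim group by the condition in which they were high, so the 81.8% leans partly on that definition. Probe sets of 1 gene share their target, so these counts do not stand for independent genes.

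**Figure D1:**
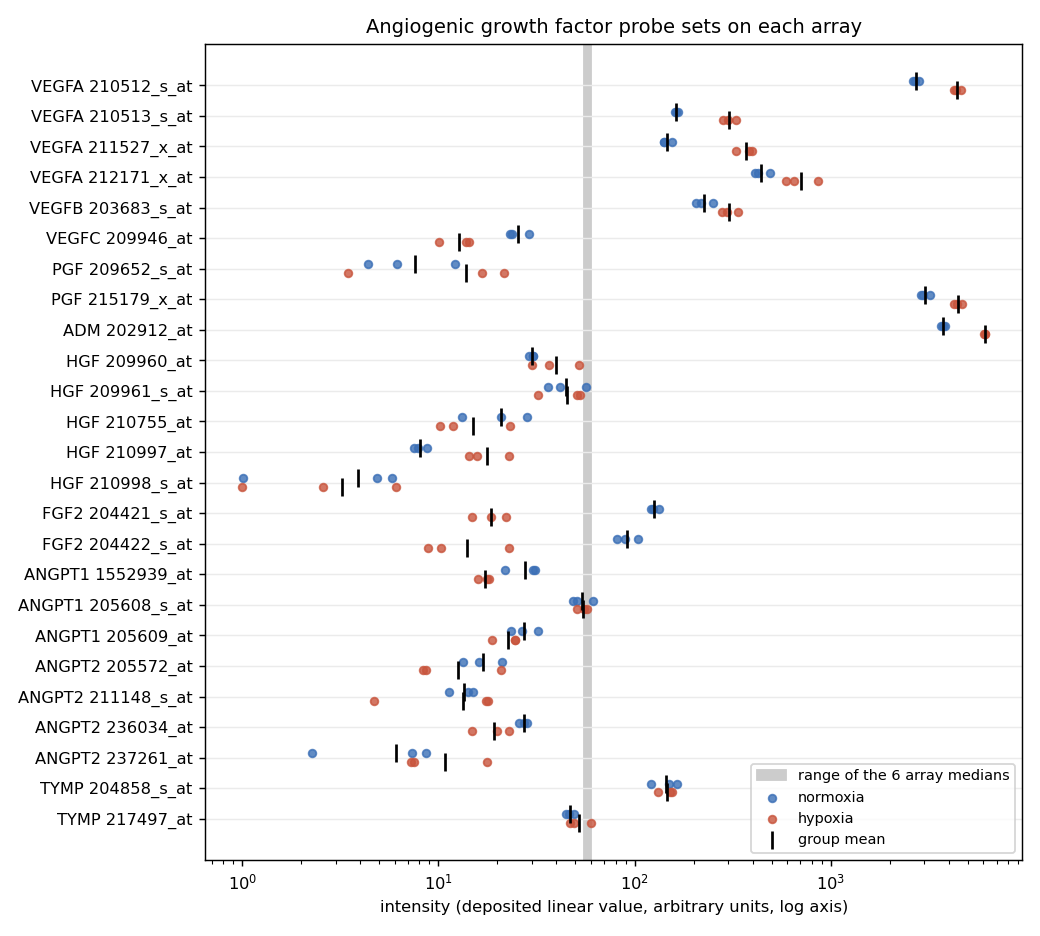
Intensity of each of the 25 probe sets (rows) on the 3 normoxia (blue) and 3 hypoxia (red) arrays, on a log axis, with black ticks for group means and a grey band for the range of array medians, 54.95 to 60.13. VEGFA, VEGFB, ADM and 1 probe set of PGF lie right of the band with the hypoxia arrays higher, both FGF2 probe sets cross the band downward, and HGF and ANGPT2 lie left of the band or at its edge.

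VEGFA, the main growth and survival factor of endothelial cells and a known HIF target, rose on all 4 of its probe sets. The brightest, 210512_s_at, read 2822, 2685 and 2639 on the normoxia arrays numbered 0, 1 and 2 and 4638, 4375 and 4227 on the hypoxia arrays, a rise of 0.70 (95% confidence interval 0.52 to 0.88). All hypoxia values lay above all normoxia values there, as they did for the other probe sets of the gene. Probe set 211527_x_at went from 155, 141 and 141 to 399, 381 and 329, and its mean was 2.53 times that of normoxia (change 1.25, interval 1.01 to 1.48, limma adjusted p = 2.67e-04). It had the largest change of the 4, and by the naming convention of these arrays the ending _x_at marks probes that can also match other sequences, while _s_at marks probes shared by several transcripts.

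Probe set 210513_s_at of VEGFA read 162, 167 and 161 in normoxia and 328, 300 and 281 in hypoxia, a change of 0.83 (interval 0.63 to 1.02). Probe set 212171_x_at was the most scattered, at 490, 426 and 410 against 861, 652 and 593 (change 0.63, interval 0.26 to 1.01, limma adjusted p = 0.0242). Its hypoxia SD was 141 around a mean of 702, and its call was lost when the normoxia array numbered 1 or 2 or the hypoxia array numbered 1 was left out (limma adjusted p = 0.0555 to 0.0818). The hypoxia array numbered 0 was the highest of its group on each of the 4 probe sets. So was the normoxia array numbered 0 on 210512_s_at, 211527_x_at and 212171_x_at, but not on 210513_s_at.

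The size of the VEGFA change thus ranged from 0.63 to 1.25 between probe sets of the same gene. Within each array, the log2 value of 211527_x_at was set against those of the others, which cancels what an array does to all probe sets of the gene. Its change was larger by 0.55 than that of 210512_s_at, by 0.42 than that of 210513_s_at and by 0.61 than that of 212171_x_at, and in these comparisons the groups did not overlap. The exact two-sided permutation test gave p = 0.1, the smallest that 3 against 3 arrays allow, and 0.15 after adjustment over all 6 pairs. Of the remaining pairs, the change of 210513_s_at exceeded that of 210512_s_at by 0.13 without overlap (exact p = 0.1, adjusted 0.15), but with a pseudocount of 64 they were level (210512_s_at less 210513_s_at at -0.0017). The pairs of 212171_x_at with the 2 _s_at probe sets overlapped (exact p = 0.3 and 0.6, adjusted 0.36 and 0.6). No pair could therefore pass by this test, and which transcripts each probe set reads is not stated in the labels.

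**Figure D2:**
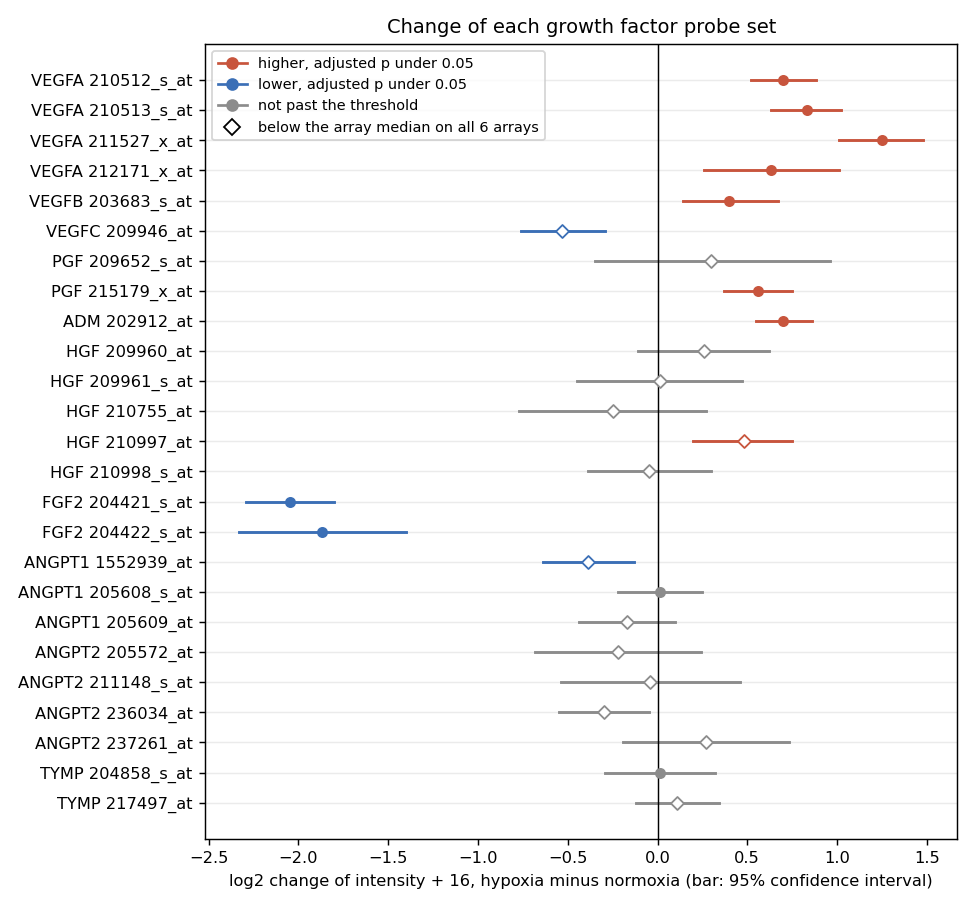
Change of each probe set on the log2(intensity + 16) scale, hypoxia minus normoxia, with its 95% confidence interval; red marks probe sets that rose, blue those that fell, grey those that did not pass, and open diamonds those under the array median on all 6 arrays. The VEGFA changes run from 0.63 to 1.25 and the FGF2 changes lie at -2.05 and -1.87.

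PGF, a VEGF family member that binds FLT1 and not KDR, was read very differently by its 2 probe sets. Probe set 215179_x_at read 2955, 2895 and 3207 in normoxia and 4259, 4426 and 4657 in hypoxia, a rise of 0.56 (interval 0.37 to 0.75, limma adjusted p = 0.0026) with no overlap. Probe set 209652_s_at read 4.38, 6.15 and 12.2 in normoxia and 3.48, 21.6 and 16.6 in hypoxia (change 0.30, interval -0.35 to 0.96). That second reading was dim on all 6 arrays and its groups overlapped. The bright one carries the _x_at ending, and how far its signal comes from PGF was not tested.

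VEGFB, a family member linked to fatty acid uptake and survival of vessel cells, was read by 203683_s_at alone. Its normoxia values were 252, 217 and 206 and its hypoxia values 335, 295 and 278, a rise of 0.40 (interval 0.14 to 0.67, limma adjusted p = 0.0355). The groups did not overlap, yet the call was lost in 7 of 14 alternatives, among them leaving out the normoxia array numbered 1 or 2 or any hypoxia array (limma adjusted p = 0.0511 to 0.11 over the 7). VEGFC, the factor of lymphatic vessels, went the other way on 209946_at. It fell from 23.8, 29.1 and 23.3 to 13.8, 14.4 and 10.1, a change of -0.53 (interval -0.76 to -0.29, limma adjusted p = 0.00849). All of these values were dim, and the size depended on the pseudocount, at -0.95 with 1 and -0.22 with 64.

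ADM encodes adrenomedullin, a peptide that widens vessels, protects endothelium and is a known HIF target. Its probe set 202912_at read 3833, 3670 and 3718 in normoxia and 6124, 6026 and 6137 in hypoxia. The groups stood far apart relative to their spread, with SDs of 83.8 and 61 around means of 3740 and 6096. The rise was 0.70 (interval 0.55 to 0.86, limma adjusted p = 4.90e-04), and it passed in all 14 alternatives.

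**Figure D3:**
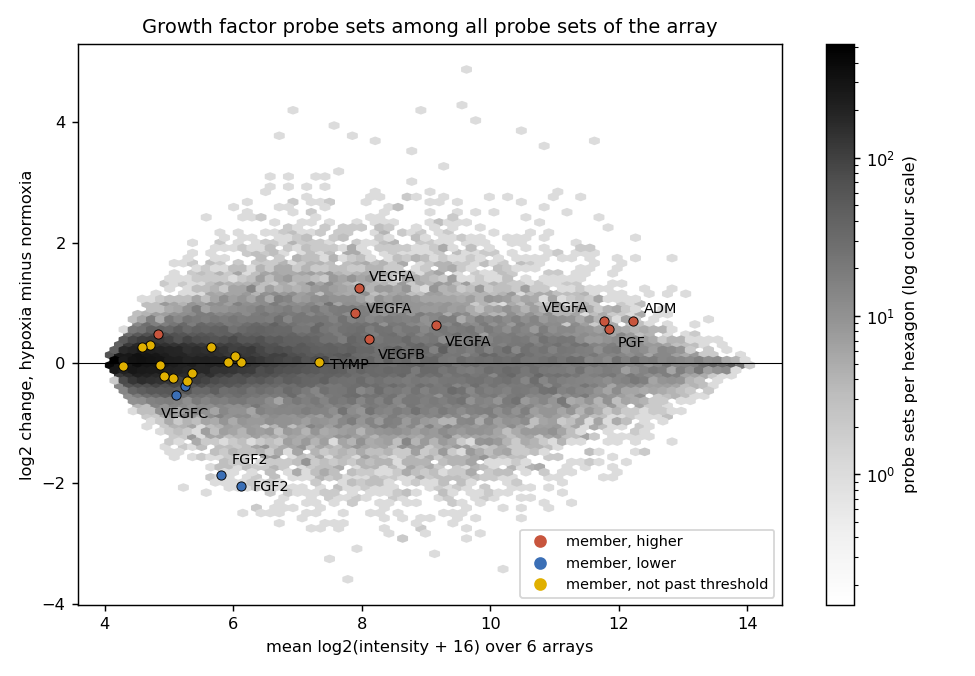
Change (vertical, log2 scale) against mean log2(intensity + 16) (horizontal) for all 54613 probe sets as grey hexagons, darker where more probe sets fall, with the 25 members as coloured points. The members that rose include the bright VEGFA, ADM and PGF probe sets at changes of 0.70, 0.70 and 0.56, and both FGF2 points lie near the lower edge of the cloud.

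FGF2, basic fibroblast growth factor, which acts on endothelial cells and on fibroblasts and leaves cells without a classical signal peptide, had the largest change of any member, downward. Probe set 204421_s_at read 121, 124 and 134 in normoxia and 22, 14.9 and 18.6 in hypoxia (change -2.05, interval -2.29 to -1.80, limma adjusted p = 7.51e-05). Probe set 204422_s_at went from 104, 89.8 and 81 to 8.82, 10.3 and 22.8, a fall of 1.87 on the same scale. On both, every normoxia value was above the array median and every hypoxia value below it. In bulk RNA, fewer cells with a transcript and less of it per cell cannot be told apart. Since the hypoxia values were in the dim range, the size depended on the pseudocount. It was -2.72 and -2.73 with a pseudocount of 1 and -1.20 and -1.0 with 64, and both calls were kept in every alternative. NUDT6, a gene transcribed from the opposite strand across the end of FGF2, was looked up after the FGF2 values were seen. Its probe set 230329_s_at went from 386, 372 and 379 to 136, 171 and 155, and 220183_s_at from 310, 327 and 329 to 90.8, 120 and 118, so both fell (changes -1.22 and -1.44, limma adjusted p = 2.70e-04 and 2.82e-04).

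HGF, hepatocyte growth factor, a ligand that some myeloma cells secrete, was dim on all 5 of its probe sets. Of these, 209960_at, 209961_s_at, 210755_at and 210998_s_at did not pass, with mean intensities of at most 45.5 in either group and changes from -0.25 to 0.26. Probe set 210997_at rose from 7.49, 7.86 and 8.75 to 14.3, 23 and 15.7 (change 0.48, limma adjusted p = 0.0206), all far under the array medians, and was at 1.02 with a pseudocount of 1 and 0.18 with 64. That call was lost when any 1 normoxia array was left out (limma adjusted p = 0.0552 to 0.0678).

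The angiopoietins act on the endothelial receptor TEK, ANGPT1 as its activator and ANGPT2 mostly as its antagonist. ANGPT1 stood near the array medians on 205608_s_at, at 50.9, 61.6 and 48.5 in normoxia and 57.3, 55 and 50.6 in hypoxia (change 0.016, interval -0.22 to 0.25). Its dim probe set 1552939_at fell from 31, 30.3 and 21.8 to 17.6, 16 and 18.2 (change -0.39, limma adjusted p = 0.0354). That call was lost in 8 of 12 alternatives (limma adjusted p = 0.0572 to 0.113), among them leaving out the normoxia array numbered 0 or 1 or any hypoxia array. The third, 205609_at, was dim and did not pass (change -0.17). All 4 ANGPT2 probe sets were dim, and 0 passed in limma, with 1 at an unadjusted p under 0.05. That one, 236034_at, read 25.9, 28.4 and 27.2 against 14.9, 23 and 19.9 without overlap (change -0.30, limma adjusted p = 0.0793), a difference that came past the threshold once arrays were centred on their medians (limma adjusted p = 0.033). The others, 205572_at, 211148_s_at and 237261_at, overlapped between groups, with changes of -0.22, -0.042 and 0.27.

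TYMP, thymidine phosphorylase, splits thymidine into thymine and a sugar phosphate, and the released sugar attracts endothelial cells. Its probe set 204858_s_at read 149, 122 and 165 in normoxia and 131, 152 and 156 in hypoxia. The groups overlapped, and the interval of the change, 0.014, ran from -0.29 to 0.32. The dim 217497_at was at 44.8, 46.5 and 48.9 and at 47.1, 59.8 and 49 (interval -0.12 to 0.34). Of the 2 probe sets, 0 passed in limma and 0 had an unadjusted p under 0.05.

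Genes around the growth factors were taken from 4 lists, each gene through its brightest single-symbol probe set, and 74 of 76 listed genes had one. In total 8 rose, 12 fell and 54 were short of the threshold, so 27% passed, while over all 19775 genes read this way 15.6% rose and 19.1% fell, or 34.6% together. The median change was -0.014 over the list and -1.6e-04 over all genes. The number that rose was 5 without the normoxia array numbered 0 and 5 without the hypoxia array numbered 2.

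Of 19 receptors and co-receptors, 2 were higher in hypoxia, 3 lower and 14 not past the threshold, with a median change of 0.033. That is 10.5% higher and 15.8% lower, beside 15.6% and 19.1% of all genes. MET, the receptor of HGF, had the largest fall of the 4 lists. Its brightest probe set 203510_at read 285, 308 and 308 in normoxia and 32.1, 42.1 and 34.8 in hypoxia (change -2.60, limma adjusted p = 5.43e-05), above the array median in normoxia and below it in hypoxia. The change was -3.02 with a pseudocount of 1 and -1.86 with 64. Of its other probe sets, the dim 213816_s_at also fell (-0.46), while 211599_x_at and 213807_x_at did not pass (-0.31 and -0.097). SDC1, a heparan sulfate proteoglycan of plasma cells that holds HGF at the surface, fell on both probe sets (-0.73 and -0.30, limma adjusted p = 0.0012 and 0.0163). The second of these calls was lost when the normoxia array numbered 1 or 2 or the hypoxia array numbered 1 or 2 was left out (limma adjusted p = 0.0548 to 0.0603).

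The receptor of adrenomedullin is CALCRL joined to a RAMP protein. CALCRL rose on 2 of 3 probe sets: 206331_at went from 164, 194 and 179 to 215, 248 and 230 (change 0.34, limma adjusted p = 0.0365) and 234996_at from 187, 169 and 148 to 230, 271 and 227 (change 0.49, limma adjusted p = 0.0191). The first call was lost in 6 of 14 alternatives, among them leaving out the normoxia array numbered 0 or 2 or the hypoxia array numbered 1 or 2 (limma adjusted p = 0.0519 to 0.108). The second was lost without the normoxia array numbered 1 or 2 or the hypoxia array numbered 1 (limma adjusted p = 0.057 to 0.0602). RAMP2 was listed at 1 on all 6 arrays, RAMP3 was dim, and RAMP1 was at 67.9 ± 5.24 and 74.5 ± 17 without passing (SD, n = 3). ACKR3, a chemokine receptor that also takes up adrenomedullin, fell from 66.2 ± 11.5 to 19.2 ± 3.61 on its brightest probe set (change -1.22, limma adjusted p = 9.94e-04), and its other 2 did not pass. That change was -1.73 with a pseudocount of 1 and -0.64 with 64.

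Receptors of the VEGF family gave no clear direction. FLT1, which binds VEGFA, VEGFB and PGF, read 249, 318 and 293 against 353, 441 and 348 on its brightest probe set 232809_s_at, without overlap but not past the threshold (change 0.39, limma adjusted p = 0.0756). It passed at the same 0.39 when only probe sets with a mean intensity of at least 50 were tested (limma adjusted p = 0.0323), with an intensity trend and with a replicate block, and at 0.34 with a pseudocount of 64. The dim 226498_at of FLT1 fell at the same time (change -0.78, limma adjusted p = 0.0163), a call lost without the normoxia array numbered 0 or 2 (limma adjusted p = 0.0584 and 0.06). The dim 226497_s_at was lower without overlap but did not pass (change -0.64, limma adjusted p = 0.077), and the dim 204406_at overlapped (change -0.42). Each of this pair passed in 1 of 12 alternatives. The dim 210287_s_at and 222033_s_at of FLT1 were at 0.12 and 0.03 without passing. KDR, FLT4, NRP1 and NRP2 did not pass (changes from -0.19 to 0.28), and neither did the FGF receptors FGFR1 to FGFR4 on their brightest probe sets, with changes from -0.16 to 0.093. Of all 7 probe sets of FGFR1, however, 3 rose and 1 fell, and of the 11 of FGFR2 1 rose. TEK went from 44, 37.2 and 36.5 to 82.3, 50.3 and 63.9 on 217711_at (change 0.55, limma adjusted p = 0.0417), and the call was lost in 8 of 14 alternatives, among them leaving out any normoxia array or the hypoxia array numbered 0 or 2 (limma adjusted p = 0.0545 to 0.122 over the 8). Its other probe set was dim and at -0.28, and TEK is also 1 of the endothelial markers summed above.

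**Figure D4:**
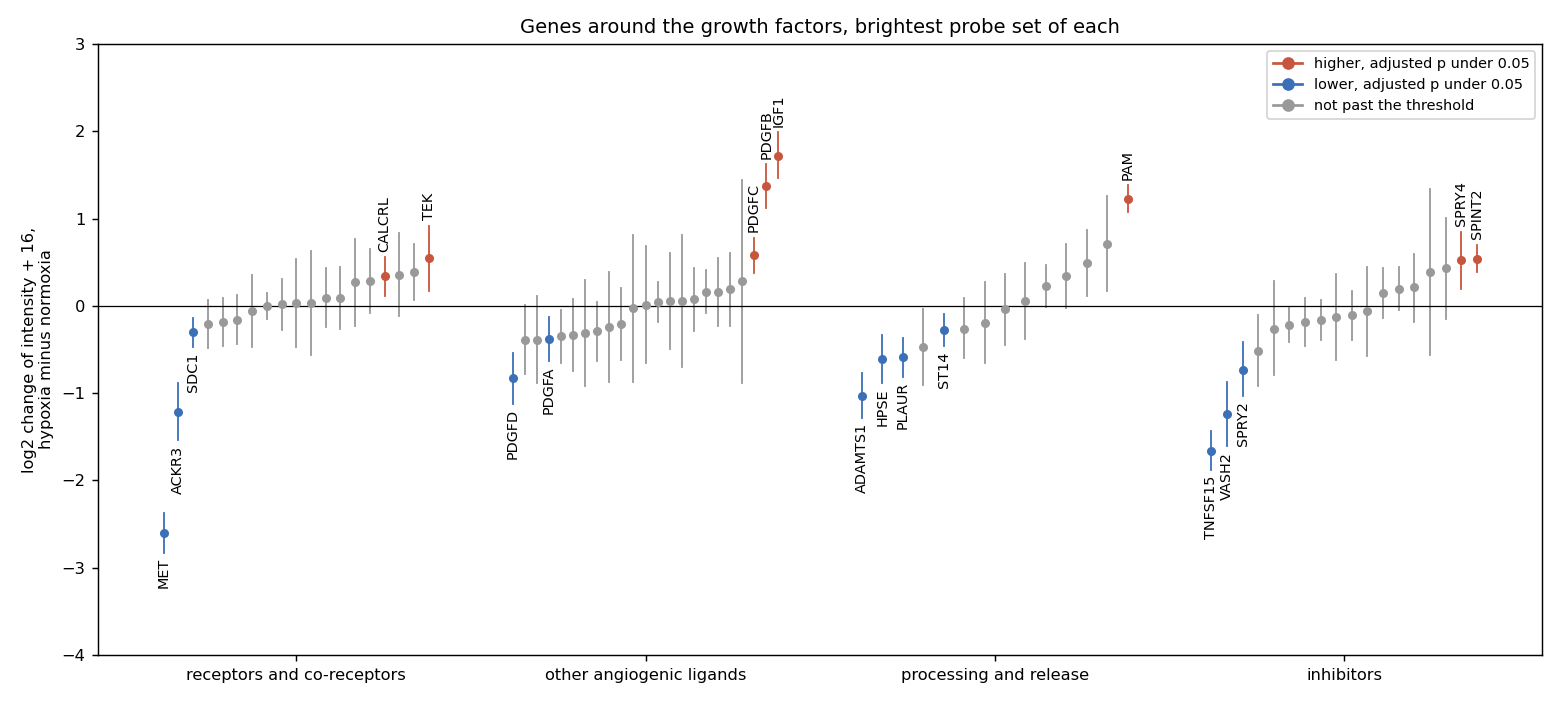
Change of each of the 74 listed genes on the log2(intensity + 16) scale with its 95% confidence interval, ordered by change within 4 lists; genes that rose (red) or fell (blue) are named and grey ones did not pass. MET at -2.60 and IGF1 at 1.72 are the ends of the range.

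In the list of 14 genes that process or release the factors, 1 rose, 4 fell and 9 stayed short of the threshold (median change -0.12). So 7.14% rose and 28.6% fell, against 15.6% and 19.1% of all genes. The one that rose was PAM, the enzyme that amidates adrenomedullin and other peptides into their active form. Its 3 probe sets rose alike: 202336_s_at went from 1053, 1022 and 1055 to 2485, 2446 and 2443 (change 1.22, limma adjusted p = 8.96e-05), and the others changed by 1.20 and 1.27. Falls were seen for the protease gene ADAMTS1 (-1.03, from a dim 37 ± 3.87 to 10 ± 2.72, and -1.81 or -0.45 with a pseudocount of 1 or 64), for HPSE, the heparanase that frees factors from heparan sulfate (-0.61), and for PLAUR, the urokinase receptor (-0.59). Of all probe sets of these genes, 1 of 2 of ADAMTS1, 2 of 2 of HPSE and 1 of 3 of PLAUR fell. ST14, a protease that activates HGF, was named after its value was seen and fell by 0.28, a call lost in 8 of 14 alternatives (limma adjusted p = 0.0507 to 0.106), among them leaving out any normoxia array or the hypoxia array numbered 0 or 2.

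Of 25 other angiogenic ligands 23 were measured, with 3 higher, 2 lower and 18 not past the threshold (median change 0.011). These shares, 13% higher and 8.7% lower, stand beside 15.6% and 19.1% of all genes. IGF1, a growth and survival factor for myeloma cells, rose on all 5 of its probe sets. The brightest, 209541_at, went from 1136, 933 and 957 to 3668, 3228 and 3195 (change 1.72, limma adjusted p = 1.41e-04), and the others rose by 0.92 to 1.78. PDGFB and PDGFC, ligands of the platelet-derived growth factor receptors, rose by 1.37 and 0.58, and PDGFD fell by 0.83. PDGFB went from 118, 130 and 154 to 366, 366 and 377 on 216061_x_at and rose also on the dim 204200_s_at (0.75), while its other 2 probe sets did not pass. PDGFA, named after its value was seen, was dim and fell by 0.38, and the call was lost without the normoxia array numbered 1 or 2, without the hypoxia array numbered 0 or 1 and with an intensity trend (limma adjusted p = 0.0857 to 0.108). PDGFA, PDGFC and PDGFD each passed on 1 of 2 probe sets.

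Inhibitors of angiogenesis or of the factors numbered 18, with 2 higher, 3 lower and 13 not past the threshold (median change -0.12). Thus 11.1% rose and 16.7% fell, against 15.6% and 19.1% of all genes. TNFSF15, a cytokine that restrains endothelial growth, fell from 164, 169 and 158 to 36.8, 38.6 and 46.8 (change -1.66, limma adjusted p = 9.89e-05), below the array medians in hypoxia. The change was -1.98 with a pseudocount of 1 and -1.12 with 64. TNFSF15 fell on 1 of its 2 probe sets, and the other did not pass. VASH2 fell by 1.24 and the growth factor signalling antagonist SPRY2, which was dim, by 0.73. SPRY2 was at -1.06 with a pseudocount of 1 and -0.37 with 64. VASH2 belongs to the vasohibins, of which VASH1 restrains vessel growth, but VASH2 itself is reported to favour it. SPINT2, an inhibitor of the proteases that activate HGF, rose from 1446, 1400 and 1419 to 2117, 2027 and 2092 (change 0.54, limma adjusted p = 0.00134). SPRY4, named after its value was seen, rose by 0.52, lost in 6 of 14 alternatives (limma adjusted p = 0.0502 to 0.0904), among them leaving out the normoxia array numbered 0 or 2 or the hypoxia array numbered 1 or 2.

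The genes most like VEGFA and ADM over the 6 arrays were found by the Euclidean distance between log2 values centred on their normoxia mean, among single-symbol probe sets with a mean log2 value of at least 8. For VEGFA 210512_s_at they were CGGBP1, STRN, ZNF776, RNF111 and NBR1 of 13343 candidates, at distances from 0.0439 to 0.0614 and changes from 0.67 to 0.72. For ADM they were PCIF1, SERPINE2, TKT, KLHL6 and DYRK1A of 13344, at distances from 0.0331 to 0.0502 and changes from 0.69 to 0.71. The measure takes in the difference between the groups as well as the spread within them. Candidates were single probe sets, and those of CGGBP1, STRN, PCIF1 and TKT were not the brightest of their gene.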

How the data were processed

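RNA was extracted with an RNeasy kit and labelled with biotin as cRNA by in vitro transcription, per the labels' protocols. The authors deposited 1 linear intensity per probe set and array; background correction, probe summary and scaling are not given in the sources used here, and precision rests on only 3 arrays per group. Groups came from the condition label and replicate numbers 0 to 2 from the titles; the treatment text naming 24 h of hypoxia is the same on all 6 arrays.

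Names came from GEO's platform annotation, which can be old: 41091 carried 1 symbol, 1801 several and 11721 none here. Symbols of listed genes were updated through Entrez identifiers, found in RefSeq for 41037. Each probe set was fitted separately on log2(intensity + 16) with lmFit and eBayes (limma 3.58.1, R 4.3.3), two-sided, with no covariates; the procedure was tested on simulated data. Text names every member, up to 4 genes with the smallest adjusted p per list, receptors of members, and the 5 genes nearest in pattern to VEGFA and ADM. Members and lists were chosen with earlier results of these data known.

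Deviations from group means correlated between same-numbered arrays at 0.214, 0.00824 and 0.192, and between differently numbered ones at -0.23 to 0.0928. Some variation may thus be shared by arrays of the same number. The numbers were not taken as pairs, except in the replicate block named next. Alternatives were pseudocounts of 1 and 64, a mean intensity of at least 50, median centring, quantile normalization, an intensity trend, 1 probe set per gene, a replicate block and leaving out each array. The differences between VEGFA probe sets under these were added after seeing the data.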

Additional observations from a re-analysis of the deposited data

How the results depend on the processing

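Of the 12 member calls, 8 were kept in every alternative that could test them. The other 4 were those of VEGFA 212171_x_at, VEGFB, HGF 210997_at and ANGPT1 1552939_at, and no called change reversed its direction. Over the 25 probe sets and their alternatives, 299 of 321 values kept their side of the threshold, 21 lost it and 1 gained it. With 1 probe set per gene, 4 members rose and 2 fell, since only 10 probe sets were tested. With a mean intensity of at least 50, 11 were tested, and 7 rose and 2 fell. Those that fell were the FGF2 probe sets, which met this limit through normoxia, with hypoxia means of 18.5 and 14. Leaving out 1 array gave 5 to 7 member probe sets higher and 3 to 4 lower, and 5 to 8 listed genes higher and 9 to 13 lower; the lowest counts of members higher came without the normoxia array numbered 1 or 2. With the replicate block, 8 member probe sets rose and 3 fell, ANGPT1 1552939_at losing its call, and 10 listed genes rose and 12 fell. Same-numbered arrays were not always the closest: the hypoxia array numbered 1 correlated best with the normoxia array numbered 2. Median centring moved the median change over all probe sets from 0.017 to -0.048 and the share of higher among all calls from 50.6% to 43.2%, with 7 members higher and 5 lower. The VEGFA probe set differences for 211527_x_at kept their sign in all alternatives that held both probe sets, while 210512_s_at minus 212171_x_at ran from -0.016 to 0.18. Signal near background limits what 14 of the 25 probe sets can show.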

Other observations

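Enzymes of pyrimidine synthesis, salvage and breakdown, the wider pathway of TYMP, were 11 genes, each read by its brightest probe set. In limma 6 were lower, 0 higher and 5 not past the threshold, with 0 of the 5 at an unadjusted p under 0.05. Over all genes 19.1% fell and 15.6% rose. The median change of the list was -0.40. TK2 and DPYD, named after their values were seen, rose on 1 of 4 and 1 of 3 of their probe sets. UMPS fell on 2 of 4, TK1 on 2 of 2, TYMS and DUT on 3 of 3 each, and UPP1 and DCK on their single probe sets. UMPS of uridine monophosphate synthesis fell from 1836 ± 36.5 to 633 ± 22.9, the uridine phosphorylase UPP1 from 679 ± 38.3 to 231 ± 25.5, the thymidine kinase TK1 from 1685 ± 118 to 998 ± 28.7 and the thymidylate synthase TYMS from 9248 ± 209 to 6259 ± 177 (SD, n = 3). DUT and DCK, named after their values were seen, fell by 0.55 and 0.40, and DCK lost its call without the normoxia array numbered 1 or 2 or the hypoxia array numbered 2 (limma adjusted p = 0.0613 to 0.0899). TYMP itself was at a change of 0.014.

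A list of 14 genes held HIF subunits, their regulators and factors known to act on VEGFA transcription or mRNA. On the brightest probe set of each, 4 rose, 3 fell and 7 did not pass. So 28.6% rose and 21.4% fell, against 15.6% and 19.1% of all genes. EGLN1, the oxygen-dependent hydroxylase that marks HIF for decay, rose from 1530 ± 142 to 3718 ± 226 (change 1.27, 3 of 4 probe sets higher), and ARNT, the partner subunit of HIF, from 267 ± 14.5 to 421 ± 13.4 (change 0.63, 4 of 7 probe sets higher; SD, n = 3). ZFP36, which promotes decay of mRNAs with AU-rich elements, rose from 562 ± 49.1 to 1038 ± 114 on its single probe set. PPARGC1A, a coactivator that can raise VEGFA without HIF, rose from 281 ± 8.68 to 426 ± 34.6 (1 of 2 probe sets higher). The genes below were named after their values were seen. VHL, which targets hydroxylated HIF for degradation, fell by 0.66 (1 of 2 probe sets lower). ELAVL1, which stabilises mRNAs with AU-rich elements, fell by 0.46 (1 of 4 lower), and the stress factor ATF4 by 0.37 on its single probe set. HIF1A did not pass, at 2814 ± 58.9 and 2813 ± 8.45, and neither did the dim EGLN3, at 33.3 ± 7.5 and 33 ± 5.79. HIF1AN and SP1 did not pass on their brightest probe sets, but HIF1AN rose on 1 of 3 and SP1 fell on 1 of 4. The brightest SP1 probe set was higher in hypoxia without overlap (change 0.25, limma adjusted p = 0.0772) and passed in 4 of 14 alternatives. EPAS1, another HIF subunit, was also higher without overlap but did not pass (change 0.18, limma adjusted p = 0.121), except in 1 of 14 alternatives.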
